A study of Mus musculus with 9 samples.

Results

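The collagen family was followed in bulk RNA sequencing of labial mucosa biopsies of B6, Tac111 and Tac146 mice (strain names as labelled), with 3 libraries per strain. Its members were all genes named Col, a type number, a and a chain number, with no minimum level, which gave 44 genes of the 55342 gene names in the files. They were grouped by textbook class into 11 fibrillar collagens, 6 basement membrane collagens (the type IV chains) and 27 other collagens. All mice were infected before the biopsy, but the sources used here give neither the agent, dose and time nor the age of the mice. Strain names come without a genotype. The labelled cell type is ILC1 (an innate lymphoid cell) for B6 and T cell for Tac111 and Tac146, so strain and labelled cell type cannot be told apart in the comparisons with B6. Replicates carry the numbers 1, 2 and 3 in B6 and Tac111 and 2, 3 and 4 in Tac146. Whether each replicate is its own animal is not stated, so p-values here reflect only library-to-library spread, which may be technical.

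Collagens are the main structural proteins of connective tissue and consist of 3 chains wound into a triple helix. Fibrillar collagens are secreted with end propeptides that are cut off before the helices assemble into fibrils, which are then crosslinked. Type IV chains form the sheet-like network of basement membranes. The other classes decorate fibrils (the FACIT group), form beaded filaments (type VI), anchor the epithelium to the tissue below it (types VII and XVII) or build short-chain networks (types VIII and X).

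Markers of epithelium, muscle and fibroblasts stood far above those of the labelled lymphocytes. Total expected counts ran from 27192359 to 46456500 per library. The 10 T cell markers summed to 16.0 to 24.8 CPM (counts set to a common total) and the 10 ILC1 and natural killer markers to 1.54 to 11.5 CPM, with Cd3e, Cd3g and Ncr1 at 0 counts in all 3 Tac111 libraries. The 9 basal keratinocyte markers summed to 11741 to 13680 CPM, the 12 skeletal muscle markers to 16988 to 33130 CPM and the 12 fibroblast markers to 766 to 1697 CPM. Tac146 replicate 4 had the lowest fibroblast and skeletal muscle sums of the 9 libraries, and the next lowest were 1290 and 26099 CPM. Counts of 3 genes were read to see whether libraries of a strain label were alike, with no genotype to compare them with. Il2rg had 145 to 216 counts per library in B6, 3 or 4 in Tac111 and 131 to 242 in Tac146. Rag2 had 47 to 75 counts per library in Tac111 and 0 elsewhere, and Rag1 had 59 to 75 in the Tac146 libraries and at most 3 in the others. In tissue RNA, fewer cells of a type and less RNA per cell cannot be told apart.

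Collagen transcripts took 0.225 to 0.399% of the counts of a library, on average 0.324% in B6, 0.303% in Tac111 and 0.277% in Tac146, with SDs of 0.0652, 0.0634 and 0.0636 (n = 3 each). These means differed by less than the spread within a strain. No member was at 0 in all libraries, and 22 of the 44 averaged 10 CPM or more. To compare genes with each other, CPM were divided by the length of the union of a gene's annotated exons in kb. On that scale Col17a1 stood highest at 117 CPM per kb, followed by Col3a1 at 72.2, Col1a1 at 42.4, Col1a2 at 35.9 and Col6a1 at 25.9. Together Col1a1, Col1a2 and Col3a1 held 38.3% of the summed collagen CPM per kb. With the longest annotated transcript as the length, Col3a1 (127) and Col17a1 (126) were almost level, Col1a2 (83.3) passed Col1a1 (47.0), and the share of the 3 fibrillar genes was 48.2%.

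**Figure D1:**
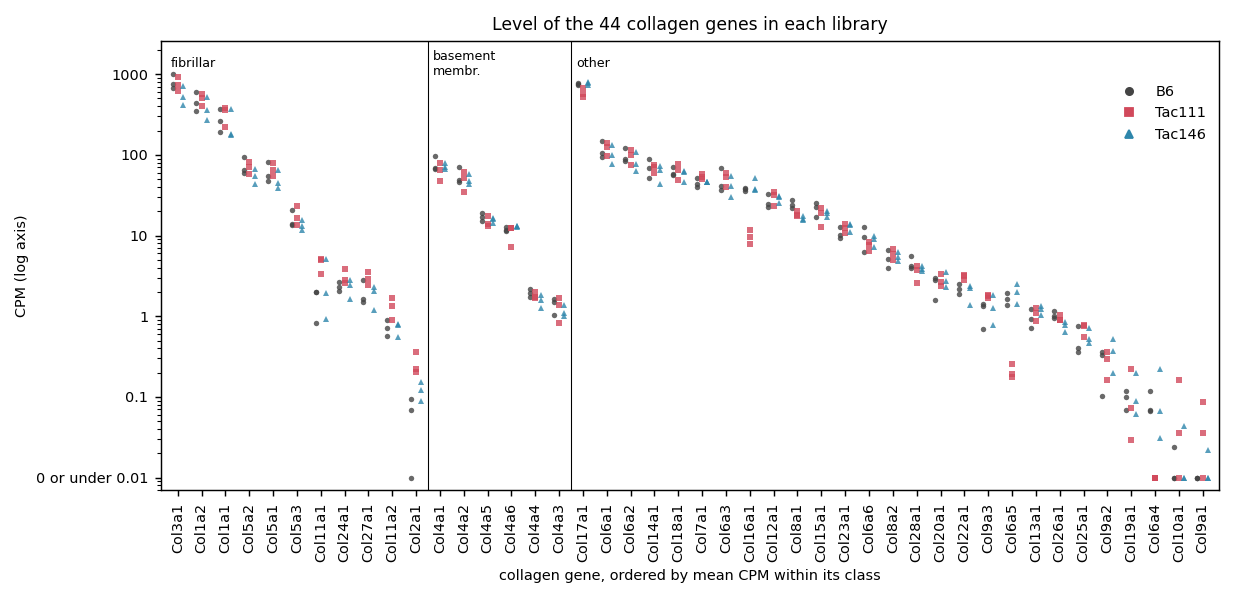
Level of each of the 44 collagen genes in the 9 libraries, in CPM on a log axis, with 1 symbol per library and the genes ordered by mean CPM within the fibrillar, basement membrane and other classes. Col3a1 and Col17a1 lie highest, and the Tac111 libraries (red squares) lie apart from the others at Col16a1 and Col6a5.

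Of the 44 members, 39 had enough counts to be tested. The 5 left out by the filter on low counts were Col2a1 and Col9a1, known from cartilage, Col10a1, known from growth plates, Col19a1 and Col6a4, none of which averaged more than 0.147 CPM over the 9 libraries. Cartilage and bone markers were also low, with 12 genes summing to 18.1 to 37.2 CPM and Matn1 at 0 in every library.

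In Tac111 against B6, 3.81% of all 16523 genes tested were called in either direction (edgeR, adjusted p under 0.05), with 462 of 630 lower. Of the 39 tested members, 2 fell and none rose. The pair was Col16a1, a FACIT collagen that occurs near basement membranes and with microfibrils of the upper dermis, and Col6a5, a type VI chain that can stand in for the alpha 3 chain. In Tac111 against Tac146 the same pair fell together with Col17a1, the transmembrane collagen of hemidesmosomes, which made 3 of 39. There 8.89% of all genes were called, with 1036 of 1469 lower. In Tac146 against B6 only Col8a1, a short-chain network collagen found in vessel walls and under corneal endothelium, was called (lower, 1 of 39), with 0.303% of all genes called. Both comparisons of Tac111 use the same 3 Tac111 libraries, so their calls are not independent of each other.

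The bases upstream of the Col16a1 and Col6a5 starts are shown because these genes had the largest changes of the family. The sequences are from RefSeq promoter windows of GRCm38.p6, which held 35 of the 44 members, and run 5′ to 3′ on the strand of the gene. Capitals mark 3 promoter motifs, searched on both strands, which do not overlap each other in the sequences shown. The TATA box was taken as the letters TATAAA. The CCAAT box is named for its own letters. GGGCGG was taken as the GC box.
Col16a1, chr4:130047590-130047839, plus strand: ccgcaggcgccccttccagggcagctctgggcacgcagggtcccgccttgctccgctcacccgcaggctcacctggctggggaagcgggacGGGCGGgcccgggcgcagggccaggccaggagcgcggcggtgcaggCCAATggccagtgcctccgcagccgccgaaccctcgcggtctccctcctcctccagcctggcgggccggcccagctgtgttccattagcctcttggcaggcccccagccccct
Col6a5, chr9:105960644-105960893, minus strand: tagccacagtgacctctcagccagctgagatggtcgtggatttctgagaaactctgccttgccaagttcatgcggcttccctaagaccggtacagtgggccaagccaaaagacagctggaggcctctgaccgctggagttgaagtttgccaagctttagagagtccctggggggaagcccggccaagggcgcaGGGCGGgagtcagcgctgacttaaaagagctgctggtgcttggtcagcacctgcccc
In the Col16a1 stretch, 75.6% of the 250 bases were G or C, and it held 1 GC box, 159 bases before the start, and 1 CCAAT box, 113 bases before it. An exon of the antisense gene Gm12963 lies in these bases. In the Col6a5 stretch, 58.8% of the bases were G or C, with 1 GC box 57 bases before the start, no CCAAT letters and no annotated exon. Over the whole windows of 300 bases, GC box letters were in 22 of the 35 matched members (62.9%) and in 35.7% of all 32851 windows of the RefSeq table. For CCAAT the shares were 34.3% of members and 37.4% of windows, and for TATAAA 14.3% and 13.6%. Members were counted by 1 window each (35 of their 38 windows), while the table shares count every window, so the 2 are not drawn alike. A match is a description of the letters and does not show a bound site.

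Col16a1 (ENSMUSG00000040690, chr4:130047840-130099283, GRCm38) stood at 38.1, 36.0 and 38.6 CPM in B6, 11.6, 9.64 and 7.85 in Tac111 and 51.6, 36.9 and 37.4 in Tac146. The 3 Tac111 libraries lay far below the 6 others, which overlapped each other between strains. The means ± SD (n = 3 each) were 37.6 ± 1.37 CPM for B6, 9.71 ± 1.89 for Tac111 and 42.0 ± 8.31 for Tac146. Col16a1 was 3.87-fold lower in Tac111 than in B6 (edgeR log2 fold change -1.95 ± 0.16 SE, adjusted p = 0.000156) and 4.33-fold lower than in Tac146 (-2.11, SE 0.16, edgeR adjusted p = 7.24e-05). All 16 alternative settings kept both calls, with adjusted p of at most 0.00212 and 0.000995. The counts behind these levels were 267 to 363 per library in Tac111 and 1035 to 2331 in the others. No other annotated gene shares exon bases with Col16a1 in the annotation used.

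Col6a5 (ENSMUSG00000091345, chr9:105856078-105960643) was a low transcript with 1.65, 1.95 and 1.36 CPM in B6, 0.192, 0.253 and 0.174 in Tac111 and 1.97, 2.49 and 1.41 in Tac146. Again all 3 Tac111 libraries lay below the other 6, and B6 and Tac146 overlapped. It was 7.95-fold lower in Tac111 than in B6 (edgeR log2 fold change -2.99 ± 0.33 SE, adjusted p = 0.000825) and 9.36-fold lower than in Tac146 (-3.23, SE 0.32, edgeR adjusted p = 0.000306). The Tac111 libraries had only 6, 7 and 6 counts, against 41 to 89 in each of the others, so the size of the fold rests on few counts. Both calls held under all 16 alternatives, with adjusted p of at most 0.00764 and 0.00429.

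Genes next to these members, looked up after the values were known, were not called. Beside Col16a1, Adgrb2 gave log2 fold changes of 0.17 against B6 and -0.02 against Tac146, and Pef1 gave -0.01 and 0.02. Beside Col6a5 on the same strand, Col6a6, another type VI chain, gave -0.36 and -0.22. The lowest edgeR adjusted p among the 8 genes on either side of the pair, in these comparisons, was 0.0568 for Tinagl1 near Col16a1 against Tac146. Tinagl1 gave log2 fold changes of -0.53 against B6 and -0.45 against Tac146. Near Col6a5, Glyctk gave -0.45 and -0.59 (edgeR adjusted p = 0.184 and 0.0604), while Ptp4a2 near Col16a1 gave 0.16 and 0.22. Col6a4, the next type VI gene on the other side of Col6a5, had 5, 2 and 2 counts in B6, 0 in all 3 Tac111 libraries and 3, 1 and 10 in Tac146, which was too low to test.

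Markers of other cell types moved with Tac111 as well. Of 12 endothelial markers, 7 were lower in Tac111 than in B6 (edgeR, all genes 3.81%). The list summed to 166 to 181 CPM in Tac111, 249 to 322 in B6 and 242 to 269 in Tac146. Pericyte and smooth muscle genes Myh11 and Rgs5 were lower (2 of 10, all genes 3.81%). That list summed to 1523 to 1723 CPM in Tac111 and 1393 to 1666 in B6. None of the 12 fibroblast markers was called in Tac111 against B6. Of these, 1 had an unadjusted p under 0.05 (all genes 21.8%) and DESeq2 called 0 (all genes 7.34%). Their sums were 1329 to 1412 CPM in Tac111 and 1290 to 1697 in B6. No marker of these 3 lists was at 0 in all libraries. The part of these cell types in the Col16a1 and Col6a5 results was not tested.

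**Figure D2:**
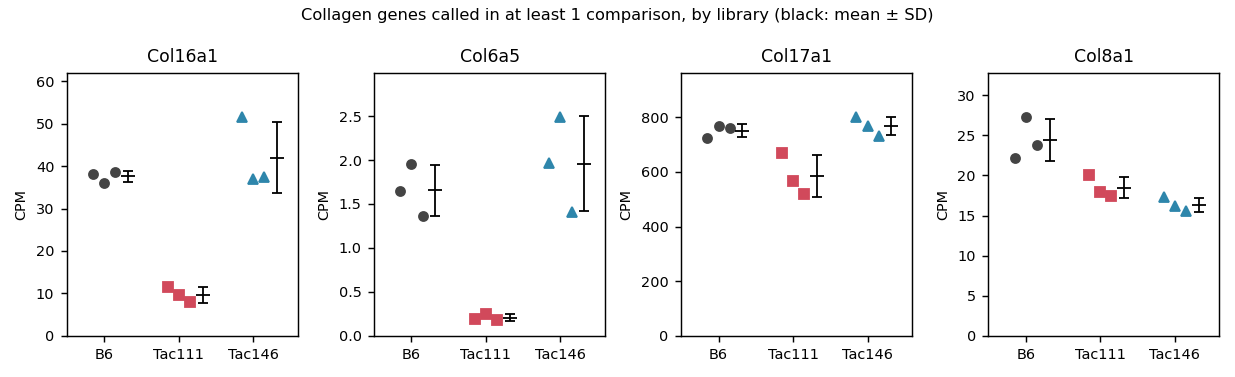
CPM by library of the 4 collagen genes called in at least 1 comparison, with 1 symbol per library and the mean ± SD of each strain in black (n = 3). The Tac111 libraries lie below all others for Col16a1, Col6a5 and Col17a1, and the B6 libraries lie above all others for Col8a1.

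Fibrillar collagens form the banded fibrils of the lamina propria, and none of their 10 tested genes was called in any comparison. Col1a1, the alpha 1 chain of type I collagen, stood at 192, 375 and 261 CPM in B6, 377, 355 and 220 in Tac111 and 369, 184 and 174 in Tac146. Its partner Col1a2 stood at 350, 605 and 441 CPM in B6, 562, 504 and 399 in Tac111 and 524, 356 and 268 in Tac146. Type I chain levels thus overlapped between all strains, and within Tac146 the highest library had 2.13 times the Col1a1 level of the lowest. Col3a1, whose product forms fibrils in distensible tissue, stood at 679, 1017 and 760 CPM in B6, 919, 726 and 614 in Tac111 and 715, 528 and 420 in Tac146. It was the only fibrillar gene with an unadjusted p under 0.05 in Tac146 against B6 (edgeR log2 fold change -0.56 ± 0.22 SE, adjusted p = 0.644), and its libraries overlapped. Such a p was found for 6.96% of all genes in that comparison and for 2 of 39 collagens (Col3a1 and Col8a1).

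Type V chains start and limit the growth of type I fibrils. Col5a1 stood at 46.9, 81.3 and 54.8 CPM in B6, 78.7, 65.4 and 54.9 in Tac111 and 64.9, 44.2 and 39.1 in Tac146. Col5a2 stood at 59.5, 95.0 and 65.8 CPM in B6, 80.9, 70.7 and 57.6 in Tac111 and 67.1, 54.0 and 43.8 in Tac146. Col5a3 stood at 14.1, 20.9 and 13.7 CPM in B6, 23.2, 16.6 and 13.5 in Tac111 and 15.6, 11.6 and 13.2 in Tac146. For all 3 genes the libraries of each pair of strains overlapped.

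Minor fibrillar genes were low, and some lay higher in Tac111, with no call in the fit used throughout. Col11a1, a type XI chain that joins type V chains in soft tissue fibrils, stood at 1.98, 1.98 and 0.828 CPM in B6, 4.97, 5.13 and 3.37 in Tac111 and 5.15, 0.921 and 1.94 in Tac146. The Tac111 libraries lay above all B6 libraries, while Tac146 spanned both. Its log2 fold change in Tac111 against B6 was 1.48 (SE 0.53, edgeR adjusted p = 0.152), and DESeq2 called it (adjusted p = 0.0444). EdgeR called it with no filter on low counts (adjusted p = 0.0329), with the replicate block (0.0251) and with only the 6 libraries compared (0.0213), and the other 12 alternatives did not (adjusted p up to 0.362). Col11a2 stood at 0.716, 0.905 and 0.563 CPM in B6, 0.898, 1.66 and 1.34 in Tac111 and 0.774, 0.799 and 0.551 in Tac146, and Col27a1 at 1.65, 2.78 and 1.49, at 2.92, 3.54 and 2.47 and at 2.28, 2.06 and 1.21. Both lay higher in every Tac111 library than in any Tac146 library, with log2 fold changes of 0.88 (SE 0.30, edgeR adjusted p = 0.0816) and 0.69 (SE 0.29, edgeR adjusted p = 0.145). Col2a1 was too low to test. Of the fibrillar genes, Col3a1 shares exon bases with Gm47302 on its own strand and Col5a1 with 2 genes on the other strand, so a part of their counts could belong to those.

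As a group, most fibrillar genes lay on 1 side of 0 in each comparison without any single call. Each pair of comparisons shares the 3 libraries of 1 strain, so these counts are not independent, and Tac146 replicate 4 was the lowest of its strain for 5 of 6 fibrillar genes of 10 CPM or more. In Tac111 against Tac146 all 10 had log2 fold changes above 0, from 0.34 to 0.88 with a median of 0.42, where the median of all genes was 0.02. Of these, 2 had an unadjusted p under 0.05 (all genes 30.9%) and 0 were called by edgeR or DESeq2 (all genes 8.89% and 16.2%). The 10 stayed above 0 without any 1 of the 9 libraries. Leaving out Tac111 replicate 1 gave a median of 0.26, and leaving out Tac146 replicate 4 or 2 gave 0.28 or 0.67. Skeletal muscle markers lay higher in each Tac111 library (29611 to 31757 CPM) than in any Tac146 library (16988 to 26447). Against B6, 9 of 10 were below 0 in Tac146 (median -0.22, all genes 0.01). Only 1 had an unadjusted p under 0.05 (all genes 6.96%), and DESeq2 called 0 (all genes 0.823%). The count below 0 fell to 5 of 10 without B6 replicate 2 and to 5 of 10 without Tac146 replicate 4. The latter was the library with the lowest fibroblast marker sum. Without Tac146 replicate 2 the count below 0 was 10 of 10 (median -0.47). In Tac111 against B6, 8 of 10 were above 0 (median 0.17), with 2 at an unadjusted p under 0.05 (all genes 21.8%) and 1 called by DESeq2 (all genes 7.34%). The count above 0 was 5 of 10 without B6 replicate 1 or without Tac111 replicate 1. It was 10 of 10 without B6 replicate 2 (median 0.43) or without Tac111 replicate 3 (median 0.35). The part of the fibroblast and muscle markers in these values was not tested.

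Type IV chains are coded by 3 pairs of genes that lie head to head, and the pairs are shown here because both genes of a pair start within a short shared stretch. The first exons of Col4a1 and Col4a2 overlap by 22 bases, given on the strand of Col4a2, with the GC box letters in capitals. Between Col4a4 and Col4a3 lie 71 bases, given on the strand of Col4a4, with none of the 3 motifs. Col4a6 and Col4a5 lie 1308 bases apart on chromosome X.
Col4a1 and Col4a2 overlap, chr8:11312805-11312826, plus strand: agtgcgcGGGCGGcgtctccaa
Col4a4 to Col4a3, chr1:82586850-82586920, minus strand: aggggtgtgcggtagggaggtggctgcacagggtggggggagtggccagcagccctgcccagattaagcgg

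Col4a1 and Col4a2, the chains of basement membranes in nearly all tissues, were the most abundant type IV genes. Col4a1 stood at 66.4, 98.0 and 69.4 CPM in B6, 78.3, 65.1 and 47.7 in Tac111 and 80.3, 65.9 and 70.7 in Tac146. Col4a2 stood at 45.6, 70.7 and 48.7 CPM in B6, 61.6, 51.4 and 34.6 in Tac111 and 57.4, 44.1 and 48.0 in Tac146. Levels of both genes overlapped between strains, and their ratio stayed within 1.27 and 1.49 in the 9 libraries. The ratio was 1.27 to 1.38 in Tac111 and 1.39 to 1.49 in the other strains, a small difference noticed in the data and not tested. Because the 2 genes share 22 exon bases on opposite strands and the sources used here do not give the strand setting of the counting, a small part of their reads could be assigned to either.

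Col4a5 and Col4a6, which pair in the basement membrane under stratified epithelium and around smooth muscle, followed. Col4a5 stood at 15.0, 18.9 and 16.8 CPM in B6, 17.3, 13.9 and 13.2 in Tac111 and 15.9, 14.3 and 16.3 in Tac146. Col4a6 stood at 11.7, 12.7 and 11.3 CPM in B6, 12.5, 12.4 and 7.12 in Tac111 and 13.1, 12.8 and 13.3 in Tac146. The Tac146 libraries lay above all libraries of the other strains for Col4a6, by little, with log2 fold changes of 0.14 against B6 and, for Tac111 against Tac146, -0.30 (edgeR adjusted p = 0.868 and 0.278). Col4a3 and Col4a4, best known from the kidney glomerulus, averaged 1.29 and 1.77 CPM.

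None of the 6 type IV genes was called in a comparison by edgeR or DESeq2, and none had an unadjusted p under 0.05. In Tac111 against B6 all 6 had log2 fold changes below 0, from -0.29 to -0.10 with a median of -0.16. That count was 4 of 6 without B6 replicate 2 and 3 of 6 without Tac111 replicate 3. For Tac146 against B6 the count was 5 of 6 (median -0.13), and in Tac111 against Tac146, 4 of 6 (median -0.04). The first of these was 3 of 6 (median 0.02) without B6 replicate 2. The second was 2 of 6 (median 0.09) without Tac111 replicate 3 and 3 of 6 (median 0.03) without Tac146 replicate 2. Without Tac111 replicate 1 the second was 5 of 6 (median -0.20). The lower endothelial marker sum in Tac111 stands beside these values, and its part was not tested.

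**Figure D3:**
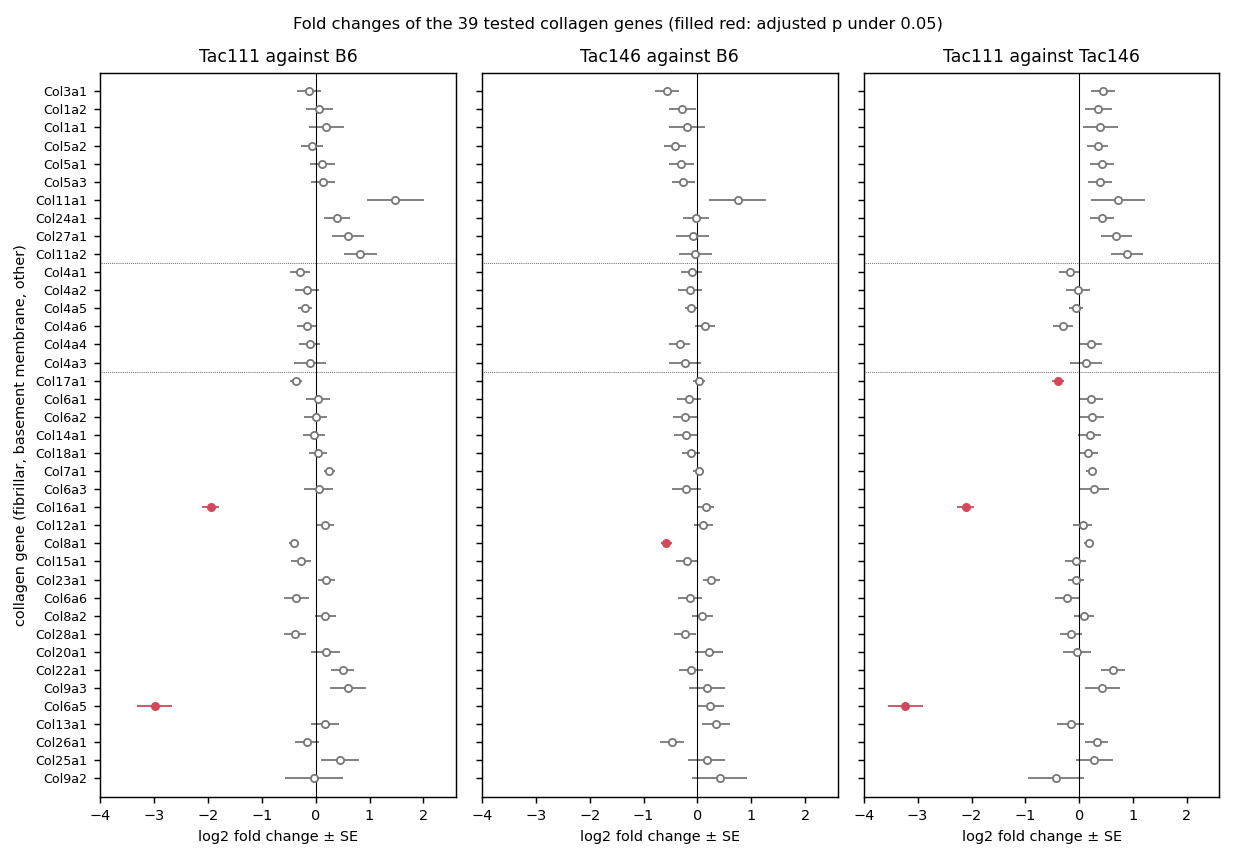
Log2 fold changes with SE of the 39 tested collagen genes in the 3 comparisons, with genes called at an edgeR adjusted p under 0.05 as filled red points and dotted lines between the fibrillar, basement membrane and other classes. Col16a1 and Col6a5 stand far left in both comparisons of Tac111, and the fibrillar genes all lie right of 0 in Tac111 against Tac146.

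Collagens of the epithelial junction tie basal keratinocytes to the lamina propria. Col17a1 (chr19:47646344-47692094), a membrane-spanning protein of hemidesmosomes, stood at 725, 768 and 760 CPM in B6, 668, 567 and 520 in Tac111 and 801, 769 and 733 in Tac146. All Tac111 libraries lay below all others, and B6 and Tac146 overlapped. Its log2 fold change was -0.39 in Tac111 against Tac146 (SE 0.11, 1.31-fold lower, edgeR adjusted p = 0.0484) and -0.36 in Tac111 against B6 (SE 0.11, edgeR adjusted p = 0.0982, DESeq2 adjusted p = 0.0126). The call against Tac146 was lost under 11 of 16 alternatives, with adjusted p up to 0.133. Markers of basal keratinocytes, the cells known to make this protein, summed to 11899 to 13341 CPM in Tac111 and 11741 to 13328 in Tac146, and none was at 0. Their median log2 fold change between these strains was -0.28, with 1 of 9 called by edgeR (Itga3, lower, all genes 8.89%). DESeq2 called 3 (all genes 16.2%), and 4 had an unadjusted p under 0.05 (all genes 30.9%). The part of these markers in the Col17a1 values was not tested.

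Col7a1, the protein of anchoring fibrils, stood at 40.3, 52.4 and 43.5 CPM in B6, 58.2, 49.6 and 53.7 in Tac111 and 45.9, 46.0 and 46.2 in Tac146. It leaned the other way from Col17a1, with a log2 fold change of 0.25 in Tac111 against B6 (SE 0.10, edgeR adjusted p = 0.204). The ratio of Col17a1 to Col7a1 CPM was 18.0, 14.7 and 17.5 in B6, 11.5, 11.4 and 9.68 in Tac111 and 17.4, 16.7 and 15.9 in Tac146. Every Tac111 library had a lower ratio than every other library, a difference noticed in the data and not tested. Counts of Col7a1 may include the microRNA gene Mir711, which shares its exon bases.

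Col8a1 (chr16:57624258-57754737) stood at 22.2, 27.3 and 23.8 CPM in B6, 20.0, 18.0 and 17.5 in Tac111 and 17.3, 16.2 and 15.6 in Tac146. The B6 libraries lay above all others, and the Tac146 libraries lay below all Tac111 libraries. It was 1.49-fold lower in Tac146 than in B6 (edgeR log2 fold change -0.58 ± 0.10 SE, adjusted p = 0.0497), a call lost under 12 of 16 alternatives with adjusted p up to 0.249, while DESeq2 kept it (adjusted p = 0.000382). In Tac111 against B6 the log2 fold change was -0.40 (SE 0.10, edgeR adjusted p = 0.0575, DESeq2 adjusted p = 0.0163). Its partner Col8a2 averaged 5.57 CPM and was not called.

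Type VI chains form the beaded filaments around cells. Col6a1 stood at 95.1, 147 and 106 CPM in B6, 139, 126 and 96.7 in Tac111 and 133, 101 and 76.9 in Tac146. Col6a2 stood at 83.1, 121 and 87.9 CPM in B6, 115, 101 and 75.8 in Tac111 and 108, 77.8 and 62.7 in Tac146. Col6a3, the long chain of the usual trimer, stood at 36.6, 68.7 and 41.3 CPM in B6, 60.2, 53.4 and 39.6 in Tac111 and 54.9, 41.2 and 30.2 in Tac146. All strains overlapped for the 3 genes, which had log2 fold changes between -0.23 and 0.28 in the 3 comparisons. Unlike Col6a5, these chains and Col6a6 (8.57 CPM on average) were not called, and none of the 4 had an unadjusted p under 0.05 or a DESeq2 call. The ratio of Col6a1 to Col6a2 CPM ran only from 1.14 to 1.30 over the 9 libraries.

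Among the fibril-associated (FACIT) genes, Col14a1 and Col12a1, which sit on type I fibrils, were unlike Col16a1. Col14a1 stood at 51.7, 89.3 and 68.0 CPM in B6, 74.5, 70.7 and 59.3 in Tac111 and 71.8, 64.1 and 43.8 in Tac146. Col12a1 stood at 24.3, 32.9 and 22.6 CPM in B6, 34.8, 31.4 and 23.5 in Tac111 and 30.9, 25.6 and 29.7 in Tac146. Neither was called, and the strains overlapped. Col22a1, known from muscle-tendon junctions, stood at 2.48, 2.16 and 1.86 CPM in B6, 3.17, 2.85 and 3.20 in Tac111 and 2.26, 2.40 and 1.39 in Tac146. Each Tac111 library lay above every other library, with log2 fold changes of 0.50 against B6 (SE 0.22, edgeR adjusted p = 0.217) and 0.62 against Tac146 (SE 0.22, edgeR adjusted p = 0.0896). Skeletal muscle markers summed to 29611 to 31757 CPM in Tac111, 27815 to 33130 in B6 and 16988 to 26447 in Tac146, none at 0 in all libraries, and their part was not tested. Col22a1 also shares exon bases with Gm16308 on the opposite strand.

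Multiplexins are basement membrane zone collagens that carry an endostatin domain. Col18a1 stood at 55.9, 70.0 and 58.4 CPM in B6, 76.3, 65.3 and 49.1 in Tac111 and 63.1, 45.6 and 60.6 in Tac146. Col15a1 stood at 16.9, 25.6 and 22.3 CPM in B6, 21.7, 19.0 and 12.9 in Tac111 and 20.0, 17.2 and 18.9 in Tac146. Neither gene separated the strains. Col23a1, a transmembrane collagen of epithelial cells, stood at 10.2, 12.7 and 9.31 CPM in B6, 14.0, 12.3 and 10.7 in Tac111 and 14.0, 13.5 and 11.1 in Tac146, and it overlapped too. Of the members not given by library, Col26a1, picked after its values were seen, lay lower in every Tac146 library (0.645 to 0.841 CPM) than in any B6 library (0.961 to 1.17), with a log2 fold change of -0.47 (edgeR adjusted p = 0.725). The 12 tested members not given by library, Col26a1 among them and ranging from Col9a2 at 0.301 to Col6a6 at 8.57 CPM, were not called in any comparison.

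Looser rules gave shares of collagens at or below those of all genes in both comparisons of Tac111, except by DESeq2 in Tac111 against B6. In Tac111 against B6, 8 of 39 had an unadjusted p under 0.05 (all genes 21.8%), 7 of 39 did not overlap between the strains (all genes 29.6%), and DESeq2 called 5 of 39 (all genes 7.34%). The DESeq2 calls were Col16a1, Col6a5, Col17a1 and Col8a1, lower, and Col11a1, higher. In Tac111 against Tac146, 6 of 39 had an unadjusted p under 0.05 (all genes 30.9%), 10 of 39 did not overlap (all genes 35.5%), and DESeq2 called the same 3 genes as edgeR (all genes 16.2%). Between Tac146 and B6, 3 of 39 did not overlap (Col8a1, Col26a1 and Col4a6; all genes 12.7%), and DESeq2 called Col8a1 alone (all genes 0.823%). The median log2 fold change of the 39 members was 0.05, -0.12 and 0.19 in Tac111 against B6, Tac146 against B6 and Tac111 against Tac146, and that of all genes 0.02, 0.01 and 0.02.

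Within a strain, most collagens were high or low in the same library. Among the 22 members of 10 CPM or more, B6 replicate 2 had the highest level of its strain for 21, Tac111 replicate 1 for all 22 and Tac146 replicate 2 for 19. At the low end, B6 replicate 1 had the lowest level for 17 of the 22, Tac111 replicate 3 for 21 and Tac146 replicate 4 for 12. In Tac146 the classes parted, since replicate 4 was lowest for 5 of 6 fibrillar genes and replicate 3 for 4 of 4 type IV genes. Fibroblast marker sums were 1514, 1697 and 1290 CPM in B6, 1384, 1329 and 1412 in Tac111 and 1461, 1447 and 766 in Tac146, so their order matched that of most collagens at the top in B6 and Tac146 but not in Tac111. Members of 1 library share its tissue and depth, so these counts describe libraries and are not independent observations of genes.

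**Figure D4:**
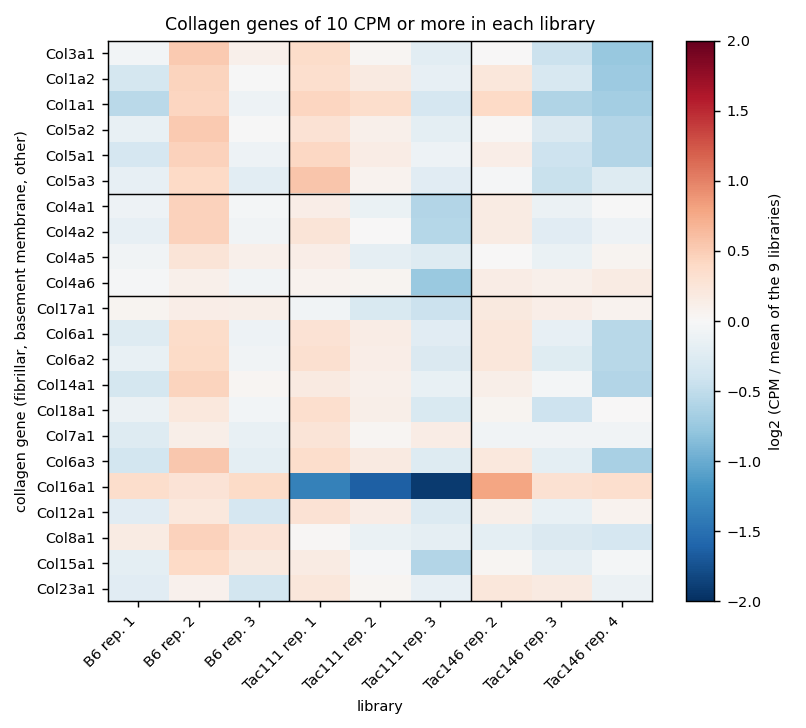
Log2 ratio of each library's CPM to the mean of the 9 libraries for the 22 collagen genes of 10 CPM or more, with red above and blue below the mean and lines between strains and classes. Columns such as B6 replicate 2 are red for most genes, and only Col16a1 is deep blue in all 3 Tac111 libraries.

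Ratios between chains ran over narrow ranges for several pairs. Col1a1 to Col1a2 ran from 0.517 to 0.705 over the 9 libraries, Col5a1 to Col5a2 from 0.787 to 0.972, and Col6a3 to Col6a1 from 0.385 to 0.466. The first and last of these overlapped between all strains. Col5a1 to Col5a2 was 0.925 to 0.972 in Tac111 and 0.787 to 0.856 in B6, with Tac146 overlapping both. That difference was noticed in the data and not tested. Col3a1 to Col1a1, whose products form separate trimers, ran more widely from 1.94 to 3.54. Col4a5 to Col4a6 ran from 1.12 to 1.86, the highest value being Tac111 replicate 3, where Col4a6 was low. These are ratios of CPM between genes of different length, so their change between libraries can be read but not the number of chains made.

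**Figure D5:**
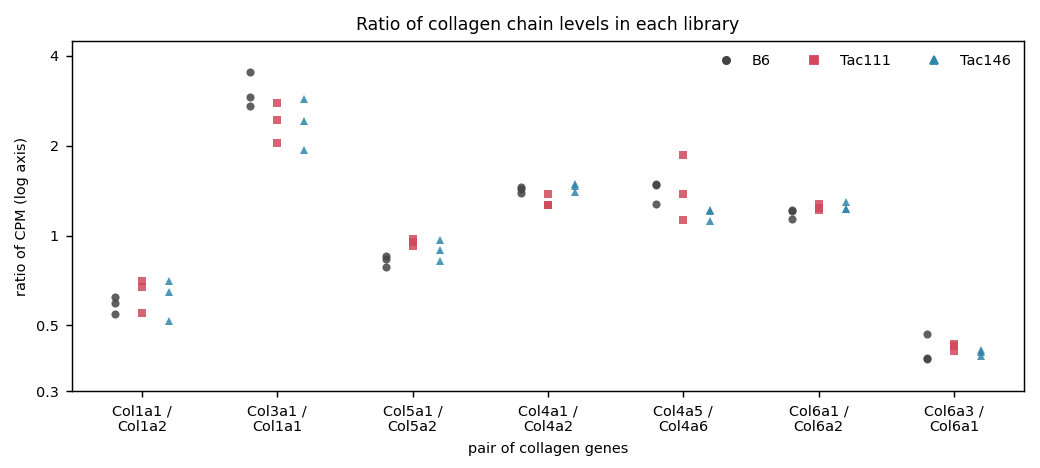
Ratio of CPM between 7 pairs of collagen genes in each library on a log axis, with 1 symbol per library. Col6a1 to Col6a2 and Col4a1 to Col4a2 lie in narrow bands, and Col3a1 to Col1a1 and Col4a5 to Col4a6 are spread more widely.

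Genes that make, cut, crosslink, bind and degrade collagen were followed as 7 lists. In Tac111 against B6, 3 of their 115 tested members fell (2.61%, against 3.81% of all genes called, 462 of 630 lower). Mmp9, a protease that degrades denatured and type IV collagen, went from 2.05 ± 0.353 CPM in B6 to 0.809 ± 0.133 in Tac111 (edgeR log2 fold change -1.33 ± 0.23 SE, adjusted p = 0.0109), 1 of 15 tested turnover genes. Itga1, the collagen-binding integrin alpha 1, went from 10.9 ± 1.10 to 6.75 ± 1.25 CPM (-0.69, SE 0.14, edgeR adjusted p = 0.0250), 1 of 10 receptors. Sparc, a collagen-binding matrix protein, went from 527 ± 65.3 to 294 ± 56.8 CPM (-0.84, SE 0.18, edgeR adjusted p = 0.0264), 1 of 17 fibril-associated genes. Mmp9 kept its call under all 16 alternatives, while Itga1 lost it under 4 and Sparc under 5, each of which left out a B6 or Tac111 library, with adjusted p up to 0.112 and 0.116. Endothelial markers (7 of 12 lower in Tac111, as given above) stand beside these values. So do Myh11 and Rgs5, the only 2 of 10 pericyte and smooth muscle markers called, whose list sum overlapped that of B6. The part of these markers was not tested.

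The other lists had no edgeR call in Tac111 against B6, where 21.8% of all genes had an unadjusted p under 0.05 and DESeq2 called 7.34%, against 25.2% and 7.83% of the 115 list genes. Of 21 folding and modification genes, 6 had an unadjusted p under 0.05 and 2 were called by DESeq2, of 14 cleavage and crosslinking genes 2 and 0, of 21 basement membrane partners 8 and 3, and of 17 TGF beta signalling genes 4 and 1. In Tac146 against B6 no gene of the 7 lists was called by edgeR or DESeq2. An unadjusted p under 0.05 was found for 0 to 2 per list (5.22% of the 115 list genes, all genes 6.96%). Median log2 fold changes of the lists lay between -0.28 and 0.00 in the first comparison and between -0.14 and 0.05 in the second.

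In Tac111 against Tac146, 9 genes of the lists fell and 3 rose (edgeR), 10.4% of the 115 tested where 8.89% of all genes were called. Of those calls over all genes, 1036 of 1469 were lower. Markers of other cells moved in this comparison too, since 6 of 12 endothelial markers were lower (sums of 166 to 181 CPM in Tac111 and 242 to 269 in Tac146). Of the macrophage markers 2 of 9, Adgre1 and Csf1r, were lower, while the sums of the list overlapped (226 to 266 CPM in Tac111 and 184 to 410 in Tac146). The part of these markers in the values of the lists was not tested. Among the folding genes, 3 of 21 fell, namely P4ha2 (log2 fold change -0.37), a prolyl 4-hydroxylase chain, P3h2 (-0.36), a prolyl 3-hydroxylase that acts on type IV chains, and Creb3l1 (-0.73), a factor that drives type I collagen genes in bone. For cleavage and crosslinking, 1 of 14 rose, Bmp1 (0.39), which removes the carboxyl propeptide, and 1 fell, Lox (-0.70), which starts crosslinking. Among turnover genes Mmp9 fell (-1.55) and Mrc2 (0.44), a receptor for collagen uptake, rose. Itga1 fell among receptors (-0.75), and Comp (0.99), which binds fibrils, rose among fibril-associated genes. Lama3 (-0.79), a chain of laminin 332, Egfl6 (-0.99), a basement membrane protein, and Itga3 (-0.48), a laminin receptor, fell among 21 basement membrane partners. Itga3, Itga6, Itgb4 and Dst of that list are also among the basal keratinocyte markers, so the Itga3 call is the same in both. The TGF beta list had 0 of 17 called, with 6 at an unadjusted p under 0.05 (all genes 30.9%) and 2 called by DESeq2 (all genes 16.2%). The adjusted p of the 12 called genes ran from 0.00368 (Mmp9) to 0.0464 (Egfl6) in edgeR. Of these 12 genes only Mmp9 kept its call under all 16 alternatives. Itga1 lost it under 2, Creb3l1 and Itga3 under 3 each and the other 8 under 8 to 10.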

How the data were processed

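The deposited files hold RSEM expected counts (estimated counts that need not be whole) for 55342 gene names per library, as the authors deposited them, per the file headers. The submitters' processing notes name STAR, RSEM and GRCm38. The kit was stranded, per the labels' protocols. Tool versions, annotation and strand setting of the counting were not given in the sources used here. Reads of overlapping genes may therefore be shared. Expected counts were rounded to whole numbers, and the 107 symbols on several lines were summed except for the date-like ones. Total expected counts of 27192359 to 46456500 per library set the precision, which is low for genes of a few counts.

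EdgeR 4.0.16 (quasi-likelihood test, TMM factors, filterByExpr) in R 4.3.3 used all 9 libraries, a mean for each strain and 6 residual degrees of freedom. P-values of the 16523 genes tested were adjusted by the Benjamini-Hochberg method, and called under 0.05. SEs are approximate (log2 fold change over the root of F). CPM of single genes use TMM-scaled library sizes, while the summed CPM of marker lists use total counts without TMM factors. Libraries of 1 strain differed beyond counting noise (chi-square per degree of freedom 14.6 to 86.4). The fit was checked on simulated counts.

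Gene positions and lengths were looked up by symbol in GENCODE for GRCm38. Members and lists were chosen with earlier results of these data known. The rule gave values by library for members with a mean of 10 CPM or more or an unadjusted p under 0.05, and named the called genes of each pathway list. Each result was recomputed under 16 alternatives: DESeq2 1.42.0, upper-quartile or median-ratio factors, no low-count filter, a minimum of 1 CPM in 3 libraries, a block for replicate number, a fit to only the 6 libraries compared, and omission of each of the 9 libraries. Collagen shares were also taken without mitochondrial transcripts.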

Additional observations from a re-analysis of the deposited data

How the results depend on the processing

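The log2 fold changes of the collagens with an unadjusted p under 0.05 and of the called list genes kept their sign under every alternative run. Other collagens did not, such as the type IV genes in Tac111 against B6, of which 0 of 6 were above 0 with all libraries and 3 of 6 without Tac111 replicate 3. Collagen calls in Tac111 against B6 were 5 by DESeq2 (2 in edgeR), and 2 to 3 with 1 library left out. In Tac146 against B6, the single collagen call (Col8a1) became 0 with median-ratio factors, the 1 CPM filter, the replicate block or only the 6 libraries compared. It also ranged from 0 to 1 with 1 library left out, and 1 was kept only without B6 replicate 1. Tac111 against Tac146 gave 2 to 3 with 1 library left out. The cause was not tested.

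Over all genes, Tac111 against B6 gave 1020 calls with no filter and 1213 by DESeq2 (630 in edgeR), and 295 to 958 with 1 library left out, the lowest without Tac111 replicate 2 and the highest without Tac146 replicate 4. B6 replicates 2 and 3 and Tac111 replicate 3 also moved it, to 349, 320 and 359. Tac146 against B6 gave 129 with no filter, 26 with only the 6 libraries and 136 by DESeq2 (50 in edgeR), and 33 to 64 with 1 library left out, 33 without B6 replicate 2 or 3. Tac111 against Tac146 gave 641 with only the 6 libraries and 2677 by DESeq2 (1469 in edgeR), and 470 to 1829 with 1 library left out, with 793 without B6 replicate 2, 907, 483 and 470 without Tac111 replicates 1, 2 and 3, and 498 and 878 without Tac146 replicates 3 and 4.

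The replicate block gave 632 calls over all genes in Tac111 against Tac146 and 3 collagen calls in Tac111 against B6. Same-numbered libraries deviated from their strain means with correlations of -0.0893 to 0.206, so the numbers were not taken to pair the libraries.

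The median log2 fold change of the tested collagens ranged from -0.10 to 0.19, from -0.21 to 0.07 and from 0.08 to 0.28 in the 3 comparisons with 1 library left out. In Tac146 against B6 it was 0.07 without B6 replicate 2. Scaling moved the median of all genes to at most 0.066. The share of Col1a1, Col1a2 and Col3a1 in collagen CPM per kb was 48.2% with the longest transcript. Shares of library counts without mitochondrial transcripts were 0.344, 0.325 and 0.294% in B6, Tac111 and Tac146. Depth limits Col6a5, with 6 or 7 counts per Tac111 library, and the 5 members that were too low to test.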
